A study of Homo sapiens with 8 samples.

Results

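The microRNAs of the miR-379 to miR-410 cluster, on the long arm of human chromosome 14 at 14q32, were followed in 4 lung adenocarcinoma cell lines with and without TGF-β1. Members were taken by name: every assay of the array whose microRNA number belongs to the cluster. The rule uses no measured value, although earlier results of these data were known when the cluster was chosen. This gave 46 assays of the 754 on the 2 cards of the array, 35 on card A and 11 on card B. They cover 35 hairpin genes, and for 11 hairpins both arms were assayed. The readout was the threshold cycle (Ct) of TaqMan reverse transcription PCR, where each cycle fewer means double the template and 40 means no amplification. A Ct of 35 or below was counted as detected.

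The lines were A549, LC2/ad, PC3 and PC9. By its labels PC3 is here a lung line, although a widely used prostate line has the same name. Each line gave 1 control sample without agent and 1 sample kept for 72 h in TGF-β1 (5 ng/ml). The 2 groups thus hold 4 samples each. All cells grew in RPMI medium with serum, which itself carries growth factors. A single frozen stock of each line was used and the lines were not authenticated by the submitters. The labels record no repeat culture of any line. A value from 1 line therefore has no replicate error, and the p-values of changes below measure the spread between lines. The p-values for levels between lines instead take the control and the treated sample of a line as its replicates. The treatment entry and the title of each sample give its group, while their source names, for all 8, have exposed and unexposed cells exchanged. If that wording were the right one, every direction below would turn.

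A microRNA is cut from a hairpin and guides a silencing complex to messenger RNAs, mainly through its seed, the bases 2 to 8 counted from its 5′ end. The cluster lies in the imprinted DLK1 to DIO3 region and is transcribed from the maternally inherited chromosome, as part of the same long noncoding stretch that holds MEG3, MEG8 and MEG9. It is expressed in brain, placenta and embryonic tissues, and is low or silent in many adult epithelia. TGF-β1 is a cytokine under which epithelial cells can lose their contacts and take on mesenchymal traits. In the series title, miR-134 stands with miR-487b and miR-655 as a cluster that acts in this transition, in gefitinib resistance and on the messenger of the scaffold protein MAGI2.

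In RefSeq (GRCh38.p14) the 35 hairpin genes lie on the plus strand of chromosome 14 within 44.7 kb, from MIR379 to MIR656 (chr14:101022066-101066801). DLK1, MEG3, RTL1 and MEG8 come before them and MEG9 and DIO3 after. RefSeq mature sequences were found for 45 of the 46 members, the missing entry being miR-668. The sequences shown are those of the 12 members detected in at least 1 sample and of miR-655, in chromosome order, written 5′ to 3′ with the seed in capitals, because the changes below rest on these molecules. The assay names do not give an arm for every member, and arms were assigned from standard microRNA naming.
miR-379: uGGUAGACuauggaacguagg
miR-411: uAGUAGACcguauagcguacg
miR-323-3p: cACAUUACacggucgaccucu
miR-494: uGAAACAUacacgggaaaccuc
miR-495: aAACAAACauggugcacuucuu
miR-376c: aACAUAGAggaaauuccacgu
miR-376a: aUCAUAGAggaaaauccacgu
miR-487b: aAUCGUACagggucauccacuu
miR-539: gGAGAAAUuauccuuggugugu
miR-655: aUAAUACAugguuaaccucuuu
miR-134: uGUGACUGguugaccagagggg
miR-377: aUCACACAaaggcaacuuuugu
miR-409-3p: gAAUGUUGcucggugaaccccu

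No 2 of these 13 share a seed. The closest pair among them is miR-376a and miR-376c, which match at 19 of 21 bases and differ by U2A, inside the seed, and A14U (the base of miR-376a first, positions counted from the 5′ end). miR-376b has the seed of miR-376a and differs from it by C19U over their first 21 bases, and its assay stayed at 40 in all 8 samples. The relative of miR-487b, miR-487a, differs from it by A5G, A13U and G20C with the base of miR-487a first, and amplified in 1 sample at a Ct of 36.4. miR-495 ends in the same 12 bases as miR-543, miR-655 in the same 14 as miR-329, and miR-329 never amplified. So the assays of near copies gave unlike Ct values, although whether an assay also reads a near copy was not tested.

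The miR-134 mature sequence lies at chr14:101054694-101054715, that of miR-487b at chr14:101046505-101046526 and that of miR-655 at chr14:101049610-101049631. Each comes from a hairpin of its own, so the 3 molecules of the title are separate genes within the stretch. miR-376a has 2 hairpin genes, MIR376A1 and MIR376A2, which its assay cannot tell apart.

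The microRNAs that amplified were few, and in LC2/ad and A549 more of them were detected after TGF-β1. Over the 8 samples 12 of the 46 members were detected at least once (26.1%), against 372 of all 754 assays (49.3%). Another 8 members amplified only above the limit, and 26 (56.5%) were at 40 in all 8 samples, where 283 of all assays (37.5%) were. Only miR-494 was detected in all 8 samples. A549 had 4 members detected in the control and 8 after TGF-β1, while all assays together gave 249 and 256. LC2/ad went from 8 to 11 members while all its assays went down from 281 to 261. PC3 detected 1 and 3 members (all assays 272 and 271), whereas PC9 detected miR-494 in both samples and nothing else (225 and 231). A Ct above 35 rests on very few template copies, so a member at 40 is one not detectable at this depth, and its absence from the cells was not shown. In such bulk samples, more RNA per cell and more cells with the RNA cannot be told apart.

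**Figure D1:**
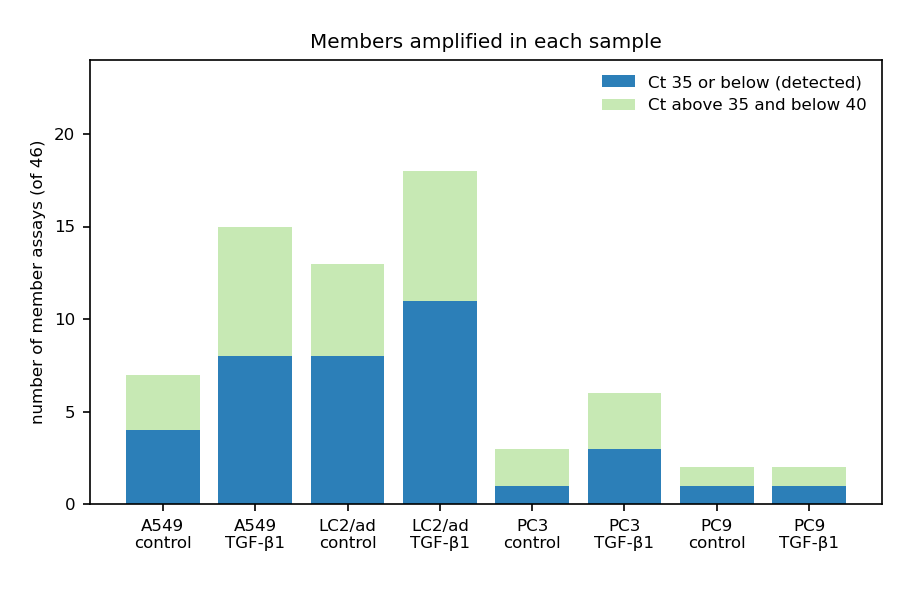
Number of the 46 member assays at a Ct of 35 or below (blue) and between 35 and 40 (green) in each of the 8 samples. Counting both, the members that amplified with TGF-β1 went from 7 to 15 for A549. The LC2/ad pair had 13 and 18, the PC3 pair 3 and 6, and PC9 stayed at 2. Over all assays the amplified counts were 315 and 323 (A549), 345 and 331 (LC2/ad), 347 and 341 (PC3), and 286 and 287 (PC9).

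Both arms of a hairpin were never detected together. Of the 11 hairpins with both arms on the cards, 4 had 1 arm detected, those of miR-376a, miR-377, miR-409 and miR-411, and their other arms stayed at 40 in all 8 samples. The detected arm came from the 3′ side in miR-376a, miR-377 and miR-409 and from the 5′ side in miR-411. Another 2 hairpins, those of miR-369 and miR-485, had 1 arm that amplified above the limit. For the MIR409 hairpin (chr14:101065300-101065378, plus strand) and the MIR411 hairpin (chr14:101023325-101023420, plus strand) the detected arm is set in capitals, to show which strand of the stem the readings belong to.
MIR409: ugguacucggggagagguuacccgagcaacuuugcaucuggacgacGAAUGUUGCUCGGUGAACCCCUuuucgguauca
MIR411: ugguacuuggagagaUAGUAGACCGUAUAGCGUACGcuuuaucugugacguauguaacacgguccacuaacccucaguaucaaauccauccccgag

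Of the microRNAs named in the title, miR-134 and miR-487b had lower Ct values after TGF-β1 in A549 and LC2/ad, and neither amplified in PC3 or PC9. miR-134, known for its role at the dendrites of neurons, had a Ct of 40 in the A549 control and 35.1 after TGF-β1. The LC2/ad samples read 36.6 and 32.6. It was thus detected in 1 of 8 samples, the treated LC2/ad sample, where its scaled level was higher by at least 2.81 on the log2 scale, or 7.00-fold. Levels were scaled in each sample and card to the mean Ct of the microRNAs detected in all 8 samples, and the change is TGF-β1 minus control within a line. Where only 1 sample of a line detected an assay, the other was set to 35 and the change is a bound.

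miR-487b in A549 had Ct values of 37.8 and 34.4, while the LC2/ad pair read 38.4 and 32.5. Both control samples were above the limit, and the changes were at least 0.32 in A549 and at least 2.88 (7.35-fold) in LC2/ad. miR-655, which is known to target the transcription factor ZEB1, had 40 and 38.8 in the A549 pair. The LC2/ad pair had 40 and 35.8, and the other 4 samples were at 40. It was never detected, so no change is given for it.

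In LC2/ad, 10 of the 11 members with a value were at least 2-fold higher after TGF-β1 and none was 2-fold lower. Over all 303 assays with a value in this line the shares were 16.8% higher and 13.2% lower. The largest change was that of miR-409-3p, known to target the messenger of angiogenin: its Ct was 32.7 in the control and 29.2 after TGF-β1, a log2 change of 3.69 (12.9-fold). miR-379, the first microRNA of the cluster, went from 34.2 to 31.0, a change of 3.64 (12.5-fold). It was at 40 in the 6 samples of the other lines. miR-495 went from 34.6 to 31.8, a change of 3.21 (9.27-fold). These 3 members were detected in both LC2/ad samples, so their changes are measured values and not bounds.

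A second set of members in LC2/ad lay close together, near 4-fold. miR-323-3p had a Ct of 33.0 in the control and 31.1 after TGF-β1 (log2 change 2.31), and miR-376c, which is known to target the activin receptor-like kinase ALK7, had 32.9 and 31.2 (2.15). miR-411 had 33.0 and 31.4 (2.01) and miR-539 had 31.9 and 30.3 (2.00). miR-376a, a microRNA that is edited from adenosine to inosine in brain, was detected after TGF-β1 only, with 36.6 and 32.6 and a change of at least 2.81. The member that did not follow was miR-494, with 28.7 in the control and 29.2 after TGF-β1 and a change of -0.18. The median of the 11 values was 2.81, which is itself the bound of miR-134 and miR-376a, against -0.05 over the 303 assays. With a Ct limit of 32 the median was 1.29, and 5 of 8 members with a value were at least 2-fold higher.

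In A549, 5 of the 9 members with a value were at least 2-fold higher and none had a value of 2-fold lower, against 10.2% and 11.3% of all 275 assays with a value. Of the 9 values 3 had both samples detected and 6 were bounds. With a Ct limit of 32 the count was 0 of 2. miR-539 had a Ct of 40 in the control and 31.5 after TGF-β1 (at least 3.31, or 9.90-fold). miR-409-3p had 40 and 32.6 (at least 2.01, or 4.02-fold). For both the control reading did not amplify at all, and the treated reading lay more than 2 cycles below the limit.

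The others that were at least 2-fold higher in A549 changed by smaller steps. miR-411 had Ct values of 34.6 and 32.5 (log2 change 1.88) and miR-323-3p had 34.4 and 32.7 (1.51), with both samples detected. miR-376c had 35.2 and 33.3, a change of at least 1.49. Since its control reading lay just above the limit, the bound is close to the raw difference of 1.91 cycles.

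Of the remaining A549 members miR-494 had 29.3 and 29.4 (-0.26). miR-495 had 34.6 and 35.4, so that it was detected in the control only and its change was -0.63 or lower. With a limit of 38 it was -1.07, past 2-fold lower, and that of miR-487b was 3.09. miR-376a had 36.7 and 40, both above the limit of 35. miR-377, known to be raised in kidney cells exposed to high glucose, had 40 and 34.9, at the edge of detection. Its computed bound of -0.17 carries no direction. The median of the 9 values was 1.49, the bound of miR-376c, against -0.10 over the 275 assays, and with a limit of 32 it was 0.024 over 2 members.

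PC3 and PC9 held little of the cluster. In PC3, 0 of the 3 members with a value had a change or bound of 2-fold in either direction, against 5.12% of all 293 assays higher and 5.46% lower. miR-323-3p had a Ct of 35.7 in the control and 34.1 after TGF-β1 (at least 0.92) and miR-376a had 40 and 34.2 (at least 0.85). Both are bounds, and with a limit of 38 the count was 3 of 6. The readings of miR-494 were 31.2 and 30.5 (0.71). Above the limit, miR-539 had 40 and 35.4, miR-376c 40 and 38.5, miR-410 40 and 37.7, and miR-758 36.2 and 40. Apart from miR-758, the members that amplified in PC3 had the lower Ct after TGF-β1.

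PC9 detected miR-494 alone, at 32.2 in the control and 32.7 after TGF-β1 (-0.67), so 0 of 1 member was 2-fold changed, against 11.1% of all 252 assays higher and 10.3% lower. miR-323-3p had 35.4 and 35.1 there, both above the limit. The other 44 members were at 40 in both PC9 samples. miR-323-3p was thus the only member besides miR-494 to amplify in all 8 samples. Its raw Ct, before scaling, was lower after TGF-β1 by 1.75 cycles (A549), 1.92 (LC2/ad), 1.62 (PC3) and 0.34 (PC9). In PC9 the mean Ct used for scaling card A also fell, from 29.15 to 28.91. The small PC9 difference therefore gives no direction.

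The 8 members that amplified only above 35 gave weak readings, most of them in treated samples of A549 and LC2/ad. miR-410, after which the cluster is named together with miR-379, had 40 in every control. After TGF-β1 it read 36.8 for A549, 37.2 for LC2/ad and 37.7 for PC3. miR-758 had 40 and 38.3 in A549, against 40 and 35.1 for LC2/ad. miR-485-3p went opposite ways, from 40 to 37.5 in A549 but from 36.4 to 37.6 for LC2/ad. miR-543 had 36.2 and 35.5 in LC2/ad, miR-487a 40 and 36.4 and miR-369-5p 40 and 37.2 in the same line, and miR-889 had 40 and 38.1 in A549. No change was computed for these, since neither sample of any line detected them.

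Readings in the Ct range of the members vary more than those of abundant microRNAs. Among other assays detected in both samples, the SD of the change was 0.53 in A549 and 0.74 in LC2/ad where the lower Ct of the pair was 26 or less, and 0.91 and 1.21 where it was above 32. The members were therefore also set beside assays of like Ct. Among all assays with a lower Ct above 29, 13.1% of 175 were at least 2-fold higher in A549, where 5 of 9 members were. In LC2/ad it was 20.0% of 200, where 10 of 10 members in that range were. With the members left out, these shares were 10.8% of 166 in A549 and 15.8% of 190 in LC2/ad. In A549 5 of the 9 members had a value through the treated sample alone, as had 3 members in LC2/ad. The direction of those members was largely set by the limit. Counting only assays detected in both samples, 2 of 3 members were at least 2-fold higher in A549 (all assays 8.26%) and 7 of 8 in LC2/ad (16.7%). PC3 and PC9 had 1 member each detected in both samples, miR-494, which did not reach 2-fold (all assays 3.60% and 9.31%). Above Ct 29, 0 of 3 members in PC3 (8.20%) and 0 of 1 in PC9 (14.5%) were at least 2-fold higher.

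**Figure D2:**
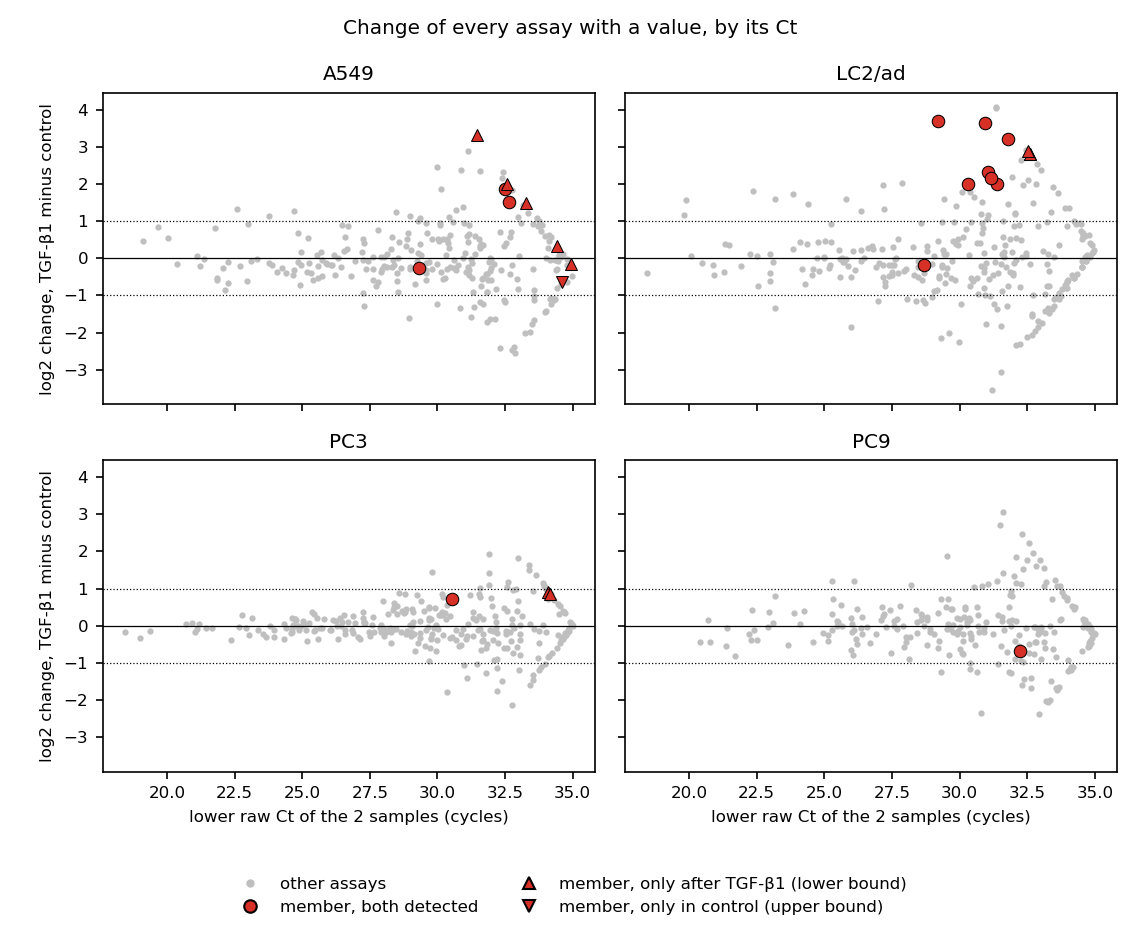
Log2 change (TGF-β1 minus control) of every assay with a value, plotted against the lower raw Ct of its 2 samples, 1 panel per line. Grey points are other assays, red symbols are cluster members (circles where both samples were detected, triangles for bounds), and dotted lines mark 2-fold. In LC2/ad all red symbols except miR-494 lie at 2.00 or above, and in PC3 and PC9 none reaches a dotted line.

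Detection in the treated sample only was frequent among members in A549. It was found for 5 of 9 members there, where 9.45% of all 275 assays were detected in that way. For LC2/ad it was 3 of 11 (all assays 7.26%). PC3 had 2 of 3 (7.17%), and PC9 had 0 of 1 (10.7%). The reverse, detection in the control only, was found for miR-495 in A549 and for no member in the other 3 lines. Among all assays this share was 6.91% (A549), 13.9% (LC2/ad), 7.51% (PC3) and 8.33% (PC9). The shares over all assays include abundant microRNAs, whose readings lie far from the limit. They are not matched for Ct, so part of the distance between members and all assays can come from the Ct range.

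**Figure D3:**
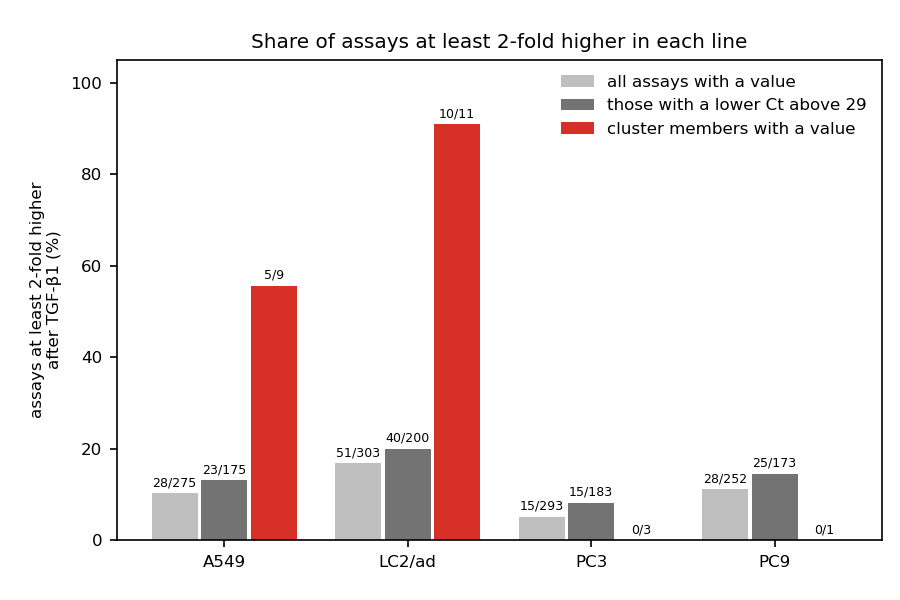
Percentage of assays at least 2-fold higher after TGF-β1 in each line, for all assays with a value (light grey), for those whose lower Ct was above 29 (dark grey) and for cluster members with a value (red), with counts above the bars. The grey bars include the members. The member bar stands at 90.9% in LC2/ad and 55.6% in A549, and at 0 in PC3 and PC9, which have 3 and 1 members with a value.

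The scaling did not decide which members reached 2-fold in A549 and LC2/ad. With U6, RNU48, all control RNAs or the median of the microRNAs in place of their mean, the same 5 members in A549 and the same 10 in LC2/ad stayed at 2-fold or more. The smallest of these values were 1.48 for miR-376c in A549 and 1.63 for miR-411 and miR-539 in LC2/ad. In PC3 the count was 2 with U6, where miR-323-3p had 1.14 and miR-376a 1.07 (bounds). miR-494 had no settled sign: its change in LC2/ad was 0.10 with the median, and that in PC9 was 0.23 with U6. These scalings also moved the median of all assays, to 0.20 with the median in LC2/ad and to 0.73 with U6 in PC9.

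On card A the 2 LC2/ad samples were deposited in different number formats, the control to 6 decimals and the treated sample to 2, and the part of this difference in the LC2/ad changes was not tested. On card B both samples were given to 2 decimals. miR-409-3p, the 1 detected member of that card, had its change of 3.69 there. Both A549 samples share a format on each card. On card A they were given to 6 decimals, while the PC3 and PC9 samples were given to 2. The format thus also divides the lines, and its part in the differences between lines was not tested.

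Over the lines, no member passed a test. limma's moderated test on the within-line differences covered the 250 assays with a value in at least 3 lines. It called 0 of them at an adjusted p of 0.05 (percent called 0), and 30 had an unadjusted p below 0.05 (12.0%). The members tested were miR-323-3p and miR-494. miR-323-3p had a mean log2 change of 1.58 (SE 0.34, n = 3 lines, limma adjusted p = 0.290). All 3 values were above 0, but the PC3 value is a bound. PC3 entered through its treated sample alone, so its direction was largely set by the limit, and PC9 had no value. Nothing is therefore read from this p-value or from the count of lines. miR-494 had a mean of -0.10 (SE 0.27, n = 4 lines, limma adjusted p = 0.906), with the PC3 value above 0 and the others below.

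With values in at least 2 lines, 9 members entered among 297 assays. Again 0 assays passed after adjustment, and 36 had an unadjusted p below 0.05 (12.1%), of which 21 were higher (7.07%). miR-411, detected in both samples of A549 and LC2/ad, had a mean of 1.94 (SE 0.30, n = 2 lines, limma adjusted p = 0.271). The means of miR-409-3p, miR-539 and miR-376c, at 2.85, 2.66 and 1.82, join a measured LC2/ad change to an A549 bound, and that of miR-495, at 1.29, likewise. Those of miR-376a (LC2/ad and PC3) and miR-487b (A549 and LC2/ad), at 1.83 and 1.60, rest on bounds in both lines. A line that entered through 1 of its samples alone had its direction largely set by the limit, so nothing is read from the p-values of these 6.

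The lines also differed in how many members their 1 control sample detected, a difference that was not tested. LC2/ad detected 8 members in the control, A549 4, and PC3 and PC9 only miR-494. All assays together gave 281, 249, 272 and 225 in the same order of lines. A limma F test of the line used all 8 samples, treated ones included, with treatment as a term. The 2 samples of a line stood as its replicates, so the test does not speak of the controls alone. It called 240 of 372 assays (64.5%) and 7 of the 12 detected members, no larger a share. A member not detected was set to the limit, which lies at a different scaled level in each sample. With 1 limit per card the test called 191 of 318 assays (60.1%) and 1 of 11 members, miR-494 (limma adjusted p = 0.00749).

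miR-494 could be measured in every sample. Its scaled log2 level was -1.20 in the LC2/ad control and -1.37 after TGF-β1, -1.47 and -1.73 in A549, -3.08 and -3.76 in PC9, and -3.80 and -3.09 in PC3. The LC2/ad and A549 samples were all above the PC9 and PC3 samples, with an adjusted p of 0.00719 in the limma F test over the 4 lines. LC2/ad and A549 lay close together without overlap, and the PC9 and PC3 values overlapped.

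Other microRNAs of 14q32, outside the stretch, were also assayed. Of 15 such assays, 4 were detected in the LC2/ad control and 3 after TGF-β1, and 1 and 1 in A549. miR-127-3p had a Ct of 31.8 and 30.4 in LC2/ad (log2 change 1.78), and miR-136# had 40 and 34.3 (at least 0.98). The passenger strand miR-432# was lower there, with 31.3 and 32.8 (-1.23). miR-432 went from 32.9 to 40 and miR-433 from 34.0 to 40, with changes of -1.86 or lower and -0.65 or lower. So 1 of 5 was at least 2-fold higher and 2 were at least 2-fold lower in LC2/ad, with a median of -0.65. In A549 only miR-432# had a value, -0.43. Whether the stretch differs from these neighbours was not tested, with so few of them measured.

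Markers of other cell types were read from the same samples. Of 6 fibroblast and smooth muscle microRNAs, 1 was detected in the LC2/ad control and 3 after TGF-β1, and their summed level, relative to the scaling mean, was 0.0130 and 0.161. There miR-143 had a change of 2.20, miR-145 at least 4.07 and miR-199a-3p at least 0.92, while miR-199a-5p, miR-199b-5p and miR-214 were at 40 in both samples. In A549 0 of the 6 were detected in either sample. Above the limit miR-143 had 40 and 36.1 there and miR-145 had 40 and 35.7, lower after TGF-β1. In PC3 3 were detected in both samples, with sums of 8.13 and 8.69, beside 1 and 3 members of the cluster. PC9 had 0 and 2, with sums of 0 and 0.115. Their part in the LC2/ad and A549 results was not tested.

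The epithelial microRNAs of the miR-200 family and miR-205 gave 5 and 4 detected of 6 in A549. LC2/ad had 3 and 4, PC3 had 3 and 3, and PC9 had 6 and 6. Single microRNAs of this list changed in both directions. In A549 the log2 change was 2.39 for miR-429, 1.86 for miR-200a, 0.67 for miR-200b, -0.31 for miR-200c and -0.68 or lower for miR-141. In LC2/ad it was at least 2.93 for miR-429, 1.65 for miR-200b, 0.97 for miR-200a and -0.98 for miR-200c. The summed levels of the list were 0.336 and 0.610 (A549), 0.152 and 0.268 (LC2/ad), 4.87 and 3.75 (PC3), and 137.0 and 121.4 (PC9). The lines with the lowest epithelial sums, LC2/ad and A549, were those with the most cluster members, as a description of 4 lines. By the number of epithelial microRNAs detected the order was another, with 5 and 4 in A549 against 3 and 3 in PC3. Of 8 pluripotency microRNAs 1 was detected in 1 sample, the PC3 control. The 5 nerve markers gave 3 detected in every sample except the treated PC3 sample, which had 4, with sums of 0.520 to 35.5. The 6 blood markers gave 0 to 2 detected, and miR-451 and miR-144 of red cells were at 40 throughout.

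The authors' deposited table gives a treated to control fold for all 46 members in each line, also where nothing amplified. By the authors' deposited table, A549 had 13 members with a fold of 2 or more (all assays 11.3%), LC2/ad had 16 (10.5%), PC3 had 5 (8.75%) and PC9 had 1 (16.4%). Of the 13 in A549, 9 rest on a control reading of 40, as do 5 of 16 for LC2/ad and 4 of 5 for PC3. Members at 40 in both samples (30 for A549, 28 for LC2/ad, 39 for PC3 and 44 for PC9) still carry a fold in the authors' deposited table, such as 1.59 on card A in PC9. The largest fold of a member named above was 379.0 for miR-539 in A549 in the authors' deposited table, where the limit of 35 gives at least 9.90-fold. For miR-409-3p in LC2/ad, with both samples detected, the authors' deposited table has 13.1 and the scaling used here gave 12.9.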

How the data were processed

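TaqMan microRNA assays on 2 cards were read in 8 samples for 40 cycles, per the labels' protocols. The deposited raw Ct (a score with no normalization) is listed at 40 where nothing amplified. The authors' deposited ratio of each sample was recomputed from Ct and U6 to within 4.07e-06 on the log2 scale. The threshold setting was not given in these sources.

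A Ct above 35 was replaced by 35. Scaling was per sample and card, to the mean of the assays that all 8 samples detected (117 of card A and 51 of card B). Within-line differences, which make the cell line a block because the labels name it, went into limma 3.58.1 (R 4.3.3), two-sided, with Benjamini-Hochberg adjustment over all tested assays and a threshold of 0.05, in assays with a value in at least 3 lines. The F test of the line ran on every assay that any sample detected. Both fits were tested on simulated data. Tables were made with Python 3.11.15 and pandas 2.3.3. The members and lists were chosen with earlier results of these data known. Every member detected in at least 1 sample and the microRNAs of the title were named, and others only where a count turned on them or as weak readings chosen after their values were seen. Alternatives covered scaling, the Ct limit, assays with the human prefix only, the number of lines required, the block and each line left out.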

Additional observations from a re-analysis of the deposited data

Results flagged for a closer look

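Single lines stood apart from the other 3 of their group for 5 members, out of 26 sets of 4 Ct values looked at. Among the control samples LC2/ad alone amplified miR-379 (Ct 34.2), miR-539 (31.9), miR-134 (36.6) and miR-409-3p (32.7). Among the TGF-β1 samples LC2/ad alone amplified miR-379 (31.0) and A549 alone amplified miR-377 (34.9). In each case the other 3 lines were at 40. Chance marks about 1 in 20 such sets, and values tied at 40 mark more, since any single amplified reading then stands apart.

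The change of miR-495 went opposite ways, 3.21 in LC2/ad and -0.63 or lower in A549. The difference between the lines was not tested, with 1 pair of samples each.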

How the results depend on the processing

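The Ct limit moved the counts of members detected and of members at least 2-fold higher in A549, LC2/ad and PC3. Members detected went from 12 to 19 with a limit of 38 and 20 with none. Members at least 2-fold higher in A549 went from 5 to 0 of 2 with a limit of 32, 9 with 38, 13 with none, 13 by the deposited fold and 2 when both samples had to be detected. In LC2/ad they went from 10 to 5 of 8 with a limit of 32 and to 16 by the deposited fold. In PC3 they went from 0 to 2 with U6, 3 with a limit of 38, 5 with none and 5 by the deposited fold, and in PC9 from 0 to 1 by the deposited fold. The deposited fold was an alternative chosen after seeing the data.

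Over the lines, scaling to U6 gave 2 assays past the threshold in place of 0, neither a member. The mean of miR-494 turned to 0.16 with U6 and 0.092 with a limit of 32, and ranged from -0.37 to 0.092 (without PC9) with 1 line left out. The fit with no replicate block called 0 assays and 0 members (limma). Assays that differed between lines went from 240 to 155 with no limit, and members from 7 to 1 with 1 limit per card and to 3 with the line alone in the model. Of 94 alternatives for these main counts, 76 stayed within 1.5 times the reported value. Many of these 76 are counts of 0 that stayed at 0, for which such a factor says little. Ct values near 35 rest on few copies, so the precision of single readings is unknown.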
